A study of Mus musculus with 15 samples.

Results

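The 10 genes described here, chosen by name, build or regulate the microtubules of neurons: Dcx, Dclk1, Dclk2, Map2, Mapt, Map1b, Tubb3, Tuba1a, Stmn1 and Stmn2. All 10 were found among the 21889 genes of the count tables, and all 10 were among the 15259 genes that passed the filter on low counts. The libraries were poly(A) RNA from mouse cerebellum, 3 per group in 5 groups. Cells labelled granule neuron precursors, which divide and then become the granule neurons of the cerebellum, came from E15.5 embryos (genotype Math1-GFP in the labels) and from pups of 3 ages, P1, P7 and P14 (genotype WT). Medulloblastoma cells (MB), from a tumour of the cerebellum, are labelled as Ptch1 heterozygous, and their labels give no age. Math1 is another name of Atoh1, a transcription factor of granule neuron precursors, and Ptch1 encodes the receptor that holds back Hedgehog signalling, which drives their division. The design text asks which genes rise as the precursors differentiate and how tumour cells compare with P7 precursors. Both cell types were purified on Percoll gradients, per the labels' protocols. Age and the Math1-GFP label change together between E15.5 and P1, so their parts in any difference at that step cannot be told apart. The labels do not say whether replicates came from separate animals, so p-values measure the spread between these libraries, which may be technical.

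Microtubules are polymers of alpha- and beta-tubulin that run along axons and dendrites and serve as tracks for cargo and for the nuclei of migrating neurons. Tuba1a and Tubb3 are tubulin isotypes of young neurons. The doublecortin family (Dcx, Dclk1, Dclk2) and the structural microtubule-associated proteins (Map2, Mapt, which encodes tau, and Map1b) bind and stabilise the polymer, whereas stathmins (Stmn1, Stmn2) bind free tubulin and promote disassembly. In the cerebellum, granule neuron precursors divide in the outer layer, then leave the cycle, extend axons and migrate inward, and Dcx is widely used as a marker of such migrating neurons.

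The genes lie apart in the genome, except that 3 of them share chromosome 3. In the mm9 positions of the transcript table, Stmn2 (ENSMUSG00000027500) spans chr3:8509527-8561604 on the plus strand, Dclk1 (ENSMUSG00000027797) chr3:55046448-55342986 on the plus strand and Dclk2 (ENSMUSG00000028078) chr3:86590073-86724803 on the minus strand. Dcx (ENSMUSG00000031285) lies on chrX:140290385-140367854 (minus), Map2 (ENSMUSG00000015222) on chr1:66221890-66489157 (plus), Mapt (ENSMUSG00000018411) on chr11:104092704-104193404 (plus) and Map1b (ENSMUSG00000052727) on chr13:100191419-100286557 (minus). Tubb3 (ENSMUSG00000062380) lies on chr8:125935324-125945915 (plus), Tuba1a (ENSMUSG00000072235) on chr15:98780272-98783982 (minus) and Stmn1 (ENSMUSG00000028832) on chr4:134024235-134029758 (plus). The transcript table lists 3 transcripts of Dclk1, 2 of Map2 and 1 of each other gene. Their joined exons run from 1060 bases in Stmn1 to 12991 in Dclk1.

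The 250 bases before 4 RefSeq start sites are shown, because Dclk1 is read from a pair of separate starts whose transcripts had different values, its relative Dclk2 has 1 listed transcript and passed the test in none of the comparisons between ages, and Map1b was lower at P1 than at E15.5. Sequences are from RefSeq (GRCm38.p6, not the build of the count tables), 5′ to 3′ on the gene's strand, and 7 of the 10 genes had an entry. Capitals mark matches on either strand to 5 motifs: the E-box CAGATG, a second E-box form CAGCTG, the GC box GGGCGG, the CCAAT box and the TATA box written TATAAA. The regions are chr3:55242114-55242363 and chr3:55461478-55461727 for Dclk1, chr3:86920885-86921134 for Dclk2 and chr13:99516603-99516852 for Map1b.
Dclk1 upstream start: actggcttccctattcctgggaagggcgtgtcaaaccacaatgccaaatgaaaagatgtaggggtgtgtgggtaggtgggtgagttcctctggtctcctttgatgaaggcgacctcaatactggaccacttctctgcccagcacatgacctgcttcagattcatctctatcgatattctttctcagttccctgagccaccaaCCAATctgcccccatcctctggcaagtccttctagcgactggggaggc
Dclk1 downstream start: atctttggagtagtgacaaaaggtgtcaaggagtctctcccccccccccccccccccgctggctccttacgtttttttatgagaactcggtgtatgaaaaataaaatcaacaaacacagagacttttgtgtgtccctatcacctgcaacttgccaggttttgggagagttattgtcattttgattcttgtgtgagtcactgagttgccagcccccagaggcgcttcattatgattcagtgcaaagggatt
Dclk2: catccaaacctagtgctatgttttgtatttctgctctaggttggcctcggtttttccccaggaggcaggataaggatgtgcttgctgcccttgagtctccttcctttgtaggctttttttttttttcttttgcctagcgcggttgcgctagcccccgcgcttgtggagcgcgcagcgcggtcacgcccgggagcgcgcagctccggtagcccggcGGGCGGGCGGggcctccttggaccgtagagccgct
Map1b: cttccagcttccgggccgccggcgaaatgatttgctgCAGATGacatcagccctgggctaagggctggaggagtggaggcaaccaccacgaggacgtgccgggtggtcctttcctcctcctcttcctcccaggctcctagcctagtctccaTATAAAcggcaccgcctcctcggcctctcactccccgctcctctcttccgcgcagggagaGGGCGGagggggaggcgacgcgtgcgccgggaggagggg
The upstream Dclk1 window held 1 CCAAT and the downstream window none of the 5 motifs. Dclk2 held 2 copies of GGGCGG that overlap each other. Map1b held 1 copy of the CAGATG E-box, 1 of the TATA box and 1 of the GC box, none of them overlapping. Among 32851 promoters of the same length, 14.4% held the CAGATG form, 13% the CAGCTG form, 32.7% the GC box, 33.8% the CCAAT box and 12.4% the TATA box. G and C made up 52.4% and 46.8% of the Dclk1 windows, 60.0% of that of Dclk2 and 66.4% of that of Map1b, against a median of 52.4% over all promoters.

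The tables held 12597472 to 43443132 counts in genes per library, and the lowest count of any of the 10 genes in a library was 2426, for Mapt in MB replicate 1. Levels are given as CPM, the count of a gene for each 1e+06 counts of its library, scaled between libraries with the TMM method. A group of 3 libraries stands apart and is named where a result rests on it. In E15.5 replicate 3, 4155 genes with up to 2 kb of exon lay a median 0.41 above their group mean on the log2 scale and 1631 genes of 6 kb or more lay 0.43 below it, and of the 10 genes the 4 with under 2 kb of exon were highest in that library while the other 6 lay below their group mean. The library labelled P1 replicate 3 summed to 4300 CPM over 10 oligodendrocyte lineage markers, against 642 and 1084 CPM in the other P1 libraries and 6669 to 7201 CPM at P14. MB replicate 1 had the largest share of reads with several alignments (44.6%, against 22.9% to 42.2% in the others). A set of 6 libraries was counted differently for at least 1 gene, Tsnax, and the labels do not say why. It holds all of P7, E15.5 replicates 1 and 3, and MB replicate 1. For Tsnax, gene counts there were 0.273% or less of those in the transcript table, and 92.4% or more in the other 9 libraries. P1 and P14 lie wholly outside the set.

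Markers were checked beside the labels. The 6 granule lineage markers (among them Atoh1, Barhl1 and Zic1) were present in every group, with sums of 2516 to 3716 CPM at E15.5, 2950 to 3863 at P1, 4779 to 5778 at P7, 4275 to 4645 at P14 and 3268 to 4072 CPM in MB. These sums hold opposite changes in MB, given with the MB results. The 8 markers of dividing cells summed to 1228 to 1727 CPM at E15.5, 1964 to 3001 at P1, 2708 to 4001 at P7, 1215 to 1453 at P14 and 3320 to 4863 CPM in MB. The 4 of 8 division markers that passed the test at P1 against E15.5 were higher, and all 8 were higher in MB than at P14. Markers of astroglia (7 genes), oligodendrocyte lineage (10), endothelium, pericytes and fibroblasts (8) and choroid plexus (5) summed to 1797 to 3915, 1089 to 2182, 497 to 684 and 48.7 to 1996 CPM at P7, so markers of other cells were present in the precursor libraries.

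**Figure D1:**
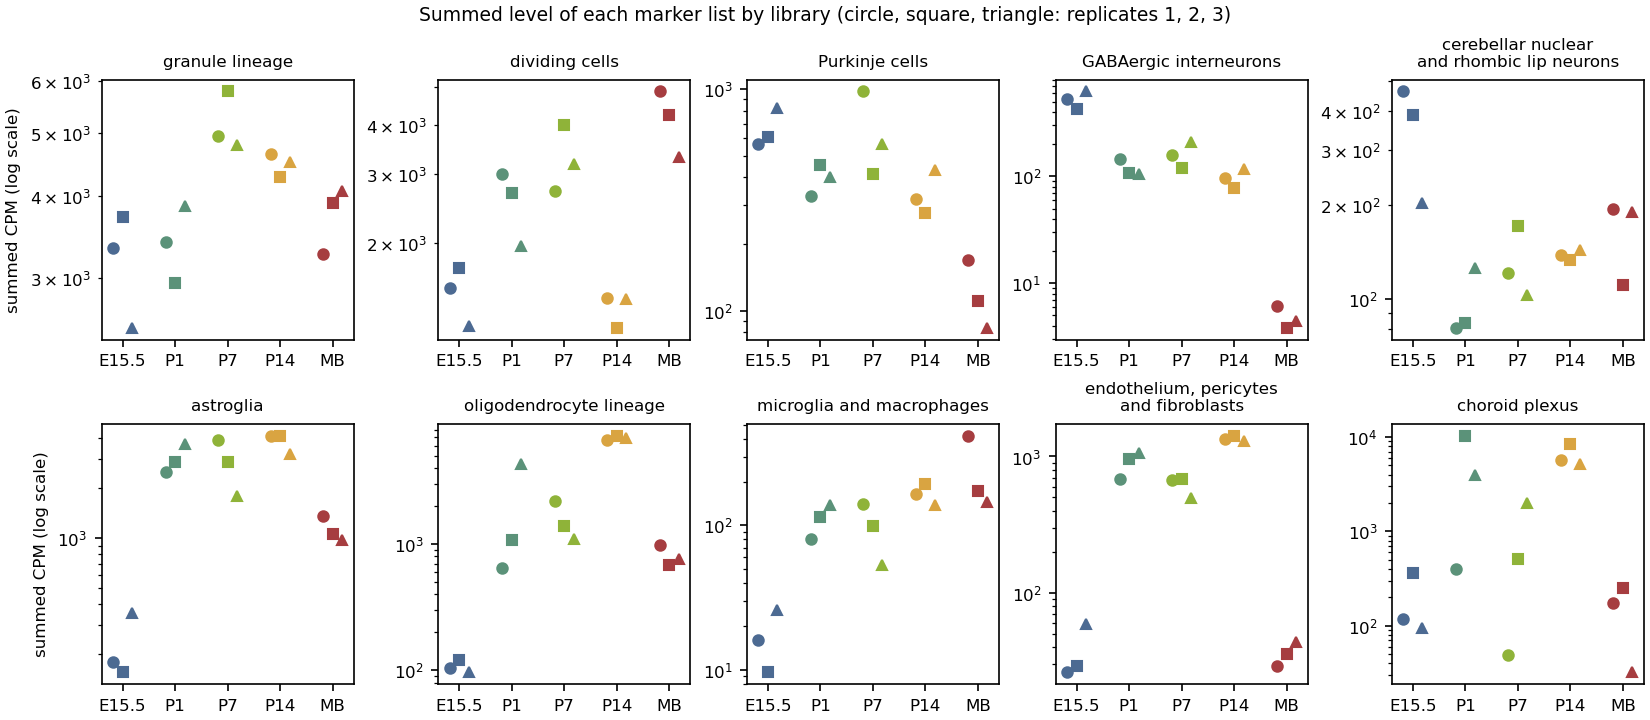
Summed CPM (log axis, a separate scale in each panel) of each marker list in the 15 libraries, by group, with circle, square and triangle for replicates 1 to 3. The interneuron list stands between 3.81 and 6.07 CPM in the MB libraries, and the vascular list stands between 26.0 and 58.5 CPM at E15.5 against 682 to 1052 CPM at P1.

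From E15.5 to P1, 7 of the 10 genes fell and 0 rose. The fall was 5.96-fold for Tubb3, 5.42-fold for Stmn1, 3.98-fold for Tuba1a, 3.91-fold for Mapt, 3.37-fold for Stmn2, 2.77-fold for Map1b and 1.63-fold for Map2. The 3 doublecortin-family genes did not pass the test. The background was high at this step: edgeR called 46.3% of all genes tested at a false discovery rate (FDR) under 0.05, 20.9% as lower and 25.4% as higher. All E15.5 libraries lay above all P1 libraries for the same 7 genes, as for 27.3% of all genes. Summed over the 10 genes, the libraries held 18506, 22259 and 26150 CPM at E15.5, 7456, 6143 and 8124 CPM at P1, 9615, 11508 and 9314 at P7, 8450, 7441 and 7607 at P14, and 6116, 5126 and 5369 CPM in MB. The E15.5 libraries lie above all others, and the MB libraries below all others.

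**Figure D2:**
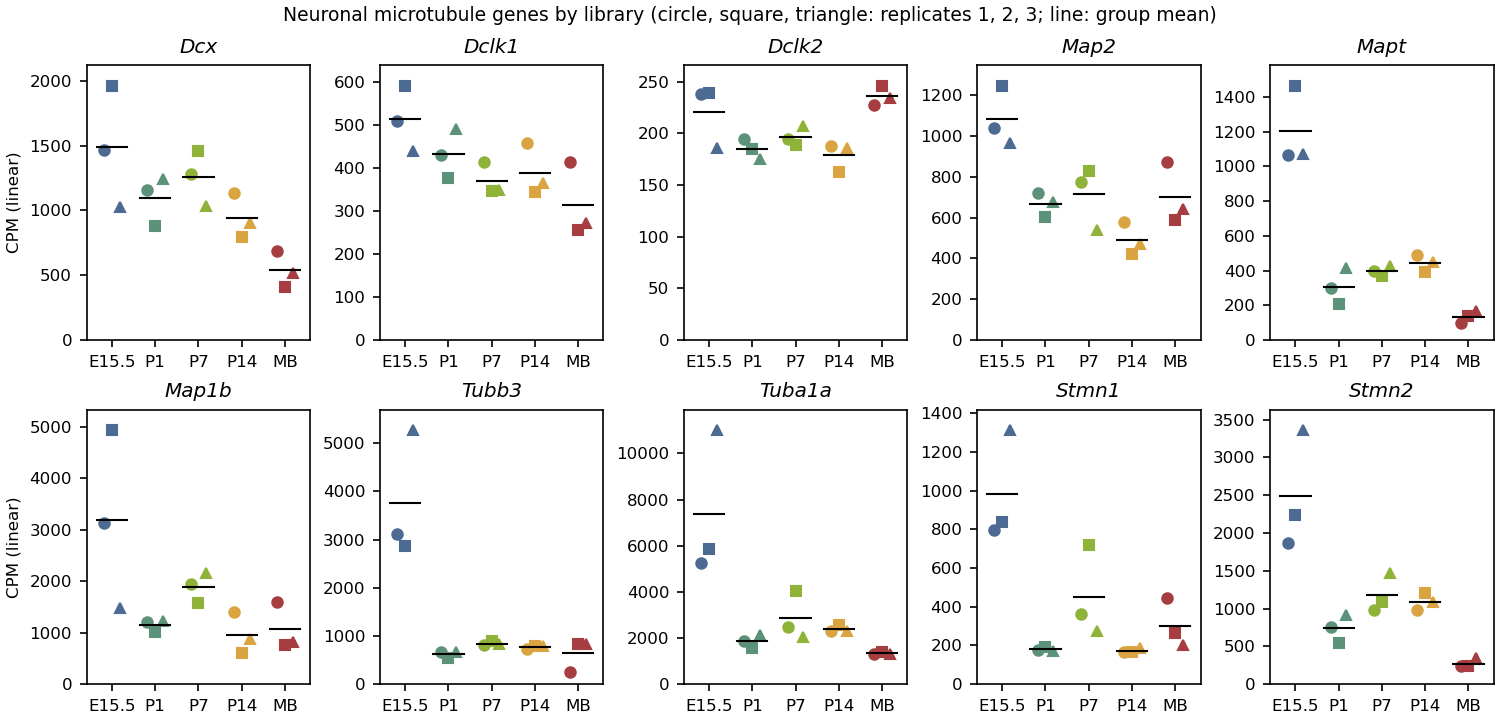
CPM (linear axes from 0, a separate scale per gene) of each gene in each library, with replicates 1, 2 and 3 as circle, square and triangle and the group mean as a line. Tubb3 stands at 2861 to 5278 CPM at E15.5 and at or below 886 CPM in every later library, whereas Dclk2 stays between 162 and 246 CPM throughout.

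Tubb3, the beta-tubulin isotype most restricted to neurons, gave 3124, 2861 and 5278 CPM in E15.5 replicates 1 to 3 and 669, 545 and 676 CPM at P1. It was 812, 886 and 827 CPM at P7 and 737, 796 and 798 CPM at P14. In MB it was 247, 844 and 835 CPM. The E15.5 libraries are far above all others, the postnatal ages lie close together, and MB replicate 1 is far below the other MB libraries. The log2 change from E15.5 to P1 was -2.58 ± 0.37 (edgeR FDR = 7.05e-05). The error after each log2 change is the SE of the fit, with 3 libraries in each group.

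Tuba1a, the alpha-tubulin isotype of migrating neurons, gave 5255, 5868 and 11021 CPM at E15.5 and 1849, 1586 and 2131 CPM at P1. It was 2462, 4053 and 2024 CPM at P7 and 2322, 2552 and 2297 CPM at P14. In MB it was 1292, 1387 and 1329 CPM, below every precursor library. The change from E15.5 to P1 was -1.99 ± 0.31 on the log2 scale (edgeR FDR = 1.14e-04). Tuba1a shares sequence with other alpha-tubulins, and its gene count was 23.3% to 35.6% of the reads over its exons in the transcript table, so its level is uncertain. In the transcript table the log2 change to P1 was -1.85, also called.

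Stmn2, a stathmin of growing axons, gave 1870, 2244 and 3366 CPM at E15.5, 758, 548 and 916 CPM at P1 and 981, 1083 and 1475 CPM at P7. It was 977, 1207 and 1084 CPM at P14 and 239, 236 and 345 CPM in MB. E15.5 lies above and MB below every other library, with no overlap. The change from E15.5 to P1 was -1.75 ± 0.27 (log2; edgeR FDR = 1.26e-04).

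Stmn1, the stathmin of dividing and young cells, gave 795, 838 and 1314 CPM at E15.5 and 178, 193 and 173 CPM at P1. It was 364, 718 and 273 CPM at P7, 168, 164 and 187 CPM at P14 and 443, 263 and 202 CPM in MB. P1 and P14 are alike and low, P7 is spread widely, and the P7 libraries lie above those of P1 and P14. From E15.5 to P1 the log2 change was -2.44 ± 0.35 (edgeR FDR = 6.63e-05). The gene count of Stmn1 was only part of the reads over its exons in the transcript table, and that part moved with group: 35.1% to 43.0% at E15.5, 20.2% to 26.4% at P1, 26.3% to 48.1% at P7, 22.6% to 24.9% at P14 and 24.3% to 44.8% in MB. In the transcript table the log2 change of Stmn1 from E15.5 to P1 was -1.69, also called lower.

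Mapt, which encodes the axonal protein tau, gave 1065, 1466 and 1074 CPM at E15.5, 298, 207 and 417 CPM at P1 and 395, 371 and 429 CPM at P7. It was 489, 390 and 447 CPM at P14 and 96.2, 136 and 166 CPM in MB. E15.5 is above and MB below every other library, and the postnatal ages overlap. The change from E15.5 to P1 was -1.97 ± 0.26 (log2; edgeR FDR = 3.16e-05).

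Map1b, a microtubule-associated protein of growing axons, gave 3140, 4940 and 1479 CPM at E15.5 and 1201, 1023 and 1231 CPM at P1. It was 1941, 1575 and 2156 CPM at P7, 1401, 609 and 869 CPM at P14 and 1597, 765 and 824 CPM in MB. E15.5 replicate 3, the library in which long genes are low, lies below all P7 libraries. The change from E15.5 to P1 was -1.47 ± 0.40 (log2; edgeR FDR = 0.00813), and without E15.5 replicate 2 it was -1.01 and no longer called.

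Map2, the dendritic microtubule-associated protein, gave 1039, 1247 and 967 CPM at E15.5, 722, 603 and 674 CPM at P1 and 775, 827 and 539 CPM at P7. It was 577, 422 and 471 CPM at P14 and 875, 587 and 644 CPM in MB. E15.5 stands above every other library, and P14 has the lowest mean. The change from E15.5 to P1 was -0.70 ± 0.21 (log2; edgeR FDR = 0.0149). It was no longer called without E15.5 replicate 2 (-0.59), without P1 replicate 2 (-0.64) or with a term for the set of 6 libraries (-0.64).

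Dcx, which encodes doublecortin, gave 1468, 1963 and 1027 CPM at E15.5 and 1158, 877 and 1240 CPM at P1. It was 1279, 1458 and 1036 CPM at P7, 1134, 796 and 901 CPM at P14 and 685, 406 and 520 CPM in MB. The 4 ages overlap, and all MB libraries lie below all precursor libraries. The log2 change from E15.5 to P1 was -0.44 ± 0.26 (edgeR FDR = 0.182). That value depends on which E15.5 libraries are kept: it was -0.70 and called lower without E15.5 replicate 3, and -0.19 and not called without E15.5 replicate 2, the highest of the 3. With a correction for exon length it was -0.79 and called. Leaving out P1 replicate 2 gave -0.31, not called.

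Dclk2, a doublecortin-like kinase, gave 238, 239 and 186 CPM at E15.5, 195, 185 and 175 CPM at P1 and 194, 189 and 207 CPM at P7. It was 188, 162 and 186 CPM at P14 and 228, 246 and 234 CPM in MB. All neighbours in the order of group means overlap, and the highest mean was in MB. The change from E15.5 to P1 was -0.26 ± 0.14 (log2; edgeR FDR = 0.155). It was called lower without E15.5 replicate 3 (-0.41) and with the exon length correction (-0.38).

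Levels were compared between genes per kb of exon, for group means. At E15.5 Tuba1a was highest at 4482 CPM per kb, followed by Tubb3 at 2010, Stmn2 at 1309 and Stmn1 at 927. Map1b stood at 269, Mapt at 229, Map2 at 193, Dcx at 164, Dclk2 at 54.7 and Dclk1 at 39.6 CPM per kb. In MB, Map2 stood at 125, Dcx at 59.2, Dclk2 at 58.3, Mapt at 25.3 and Dclk1 at 24.1 CPM per kb. Tuba1a (811), Tubb3 (344), Stmn1 (286) and Stmn2 (144) were again above the other 6, and Map1b stood at 89.6 CPM per kb. The last place of Dclk1 in both orders depends on the length used. Its level was divided by 12991 joined exon bases, whereas its longest listed transcript has 7847. In MB the count of its shortest listed transcript, of 6026 bases, was 88.5% to 90.4% of the gene count. The rank of Dclk1 against Dclk2 and Mapt is therefore uncertain. The place of Stmn1 in both orders rests on its partial gene count: in the transcript table its mean was above those of Tubb3 and Stmn2, at 1575 ± 632 against 1300.4 ± 479 and 871 ± 283 CPM per kb at E15.5 (SD, n = 3) and 559 ± 56.7 against 222 ± 117 and 96.4 ± 21.4 CPM per kb in MB.

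Other cell types moved at the same step. All 6 interneuron markers were lower at P1 than at E15.5, with sums of 425 to 621 CPM at E15.5 and 106 to 146 CPM at P1, and 5 of 6 markers of cerebellar nuclear and rhombic lip neurons were lower (203 to 461 CPM against 80.8 to 125 CPM). Purkinje cell markers were 3 lower and 2 higher of 7 (569 to 825 CPM against 329 to 454 CPM). All 7 astroglial, 10 oligodendrocyte and 8 vascular markers were higher at P1, as were 7 of 8 of microglia and macrophages and 4 of 5 of choroid plexus. Astroglial sums were 156 to 357 CPM at E15.5 and 2508 to 3712 CPM at P1, and oligodendrocyte sums were 96.5 to 121 and 642 to 4300 CPM. In E15.5 libraries S100b, Sox10, Mobp, Tmem119, Kl and Prlr stayed under 1 CPM. The part of these cells in the fall of the microtubule genes was not tested. In bulk samples, fewer cells of a type and less RNA per cell cannot be told apart.

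Among the 3 postnatal ages few of the 10 genes passed the test. Between P1 and P7, 1 gene rose, Stmn1 (1.32 ± 0.34 log2, edgeR FDR = 0.0477), where 3.15% of all genes were called and 1.40% as higher. Between P7 and P14, 1 gene fell, again Stmn1 (-1.39 ± 0.34, edgeR FDR = 0.0224), where 10.3% were called and 4.51% as lower. At P14 against P1 edgeR called none of the 10, with 8.94% of all genes called; none had an unadjusted p under 0.05, and DESeq2 also called 0. The smallest FDR values were those of Stmn2 (0.56 ± 0.26), Mapt (0.53 ± 0.25) and Map2 (-0.44 ± 0.21), at edgeR FDR = 0.188, 0.190 and 0.195.

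The rise and fall of Stmn1 around P7 depended on how its reads were counted. In the transcript table its log2 change was 0.61 from P1 to P7 and -0.74 from P7 to P14, and neither was called. Without P7 replicate 2, the highest P7 library at 718 CPM, the changes were 0.82 and -0.88 and neither was called. Of the fits that left out 1 library, the rise was called only in those without E15.5 replicate 3, P7 replicate 3, MB replicate 1 or MB replicate 3. The fall was also lost when any 1 of the P14 libraries was left out (-1.45 to -1.35). Both comparisons share the P7 libraries. All P7 libraries belong to the set of 6 and no P1 or P14 library does. When a term for the set was added, estimable because both the E15.5 and the MB group are split by it, the changes were 0.69 and -0.75, and neither was called.

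Leaving out the 3 libraries that stand apart changed which genes were called after birth. Stmn1, Mapt (0.66), Tubb3 (0.47) and Stmn2 (0.85) were then higher at P7 than at P1, which is 4 of 10, where 11.2% of all genes in that fit were higher. Mapt (0.81) and Stmn2 (0.74), 2 of 10, were then higher at P14 than at P1, near the 18.4% of all genes. Without P1 replicate 3 alone, Mapt was higher at P14 than at P1 by 0.81. At P14 against P7, Stmn1, Map2 (-0.55) and Map1b (-0.98) were then lower, where 14.2% of all genes were. The test for any difference among the 4 ages called 7 of 10, all but the doublecortin-family genes, where 55.7% of all genes were called.

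**Figure D3:**
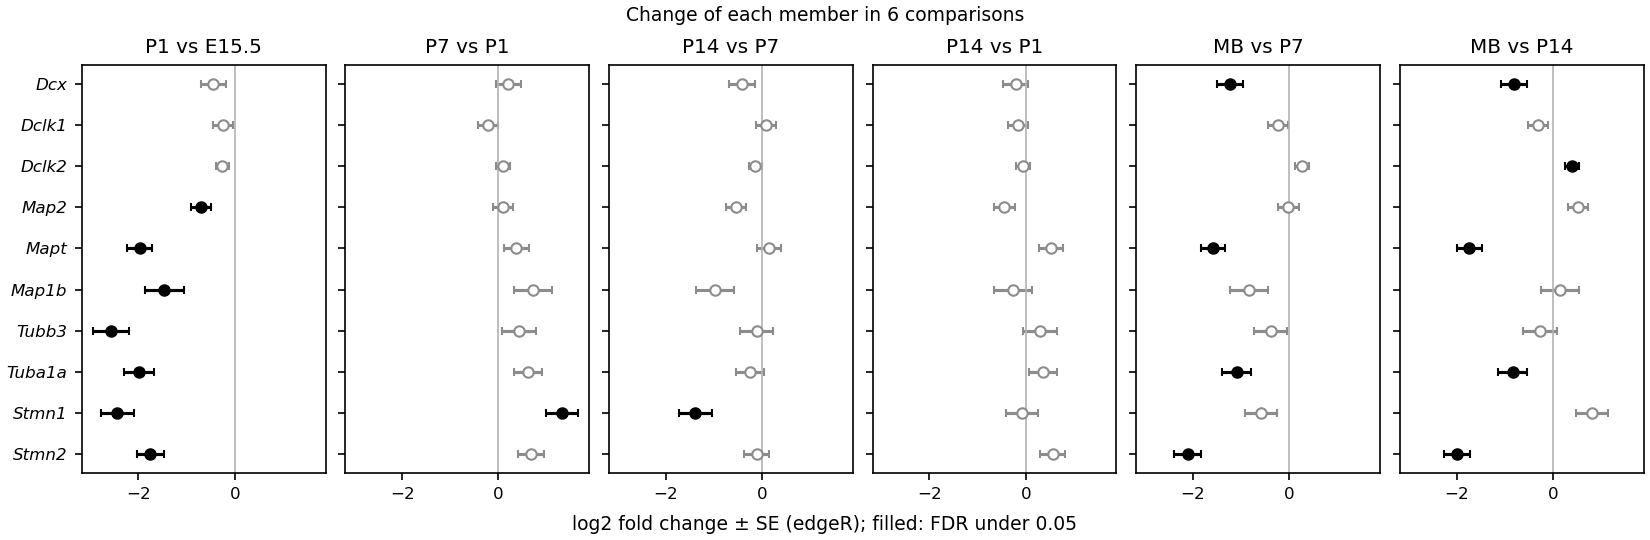
Log2 fold change ± SE from the edgeR fit for each gene (rows) in 6 comparisons (panels, first group over second), filled where the FDR is under 0.05. The filled points lie left of 0 for 7 genes at P1 against E15.5 and for Dcx, Mapt, Tuba1a and Stmn2 in both MB comparisons.

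In medulloblastoma cells, 4 genes were lower than at P7: Stmn2 by 4.32-fold, Mapt by 3.00-fold, Dcx by 2.34-fold and Tuba1a by 2.13-fold. All 3 MB libraries lay below all P7 libraries for each of them. Libraries were separated in that direction for 23.9% of all genes. None of the 10 was called higher. edgeR called 34.5% of all genes in this comparison, 20.7% as lower and 13.7% as higher. The log2 changes were -2.11 ± 0.27 for Stmn2 (edgeR FDR = 2.99e-05), -1.58 ± 0.26 for Mapt (FDR = 2.05e-04), -1.23 ± 0.27 for Dcx (FDR = 0.00217) and -1.09 ± 0.30 for Tuba1a (FDR = 0.00983).

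The other 6 genes did not pass the test against P7. Map2 (-0.02 ± 0.21), Dclk1 (-0.24 ± 0.21), Tubb3 (-0.39 ± 0.35) and Stmn1 (-0.58 ± 0.33) had overlapping libraries, as had Map1b (-0.83 ± 0.40). Dclk2 was at 0.26 ± 0.14, with the MB libraries above those of P7. With the exon length correction Dclk2 was at 0.34 and called higher, where the median of all genes was 0.095. Without the 3 libraries that stand apart, 7 genes were lower: the same 4 genes were joined by Map1b (-1.25), Stmn1 (-0.96) and Dclk1 (-0.49), where 25.5% of all genes in that fit were lower. Without MB replicate 1 alone Map1b was called at -1.25 and Stmn1 at -0.96. In the transcript table, with all libraries, Stmn1 was at -0.41 and not called.

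The set of 6 libraries splits the MB group. Inside that set, where MB replicate 1 alone stood against the 3 P7 libraries and was assumed to vary as the other groups do, the Dcx change was -0.83 and that of Tuba1a -1.09, neither of them called, and Tubb3 was called at -1.72. Tubb3 in that library was 247 CPM against 844 and 835 CPM in the other MB libraries. Tuba1a was also not called with a term for the set (-0.95) or without P7 replicate 2 (-0.75).

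Against P14, 4 genes were lower in MB and 1 was higher, where 50.0% of all genes were called, 27.2% as lower and 22.9% as higher. Stmn2 (-2.0 ± 0.27, edgeR FDR = 2.94e-05), Mapt (-1.74 ± 0.26, FDR = 5.81e-05), Tuba1a (-0.84 ± 0.30, FDR = 0.0280) and Dcx (-0.81 ± 0.27, FDR = 0.0187) were lower. Dclk2 was higher (0.40 ± 0.14, FDR = 0.0294). Map2 (0.52 ± 0.21) and Stmn1 (0.81 ± 0.33) did not pass the test (FDR = 0.0556 and 0.0564), although their MB libraries lay above those of P14, and DESeq2 called both higher (0.52 and 0.81). In the transcript table the change of Stmn1, whose gene count is partial, was 0.34 and not called. Dclk1 (-0.31 ± 0.21) was called lower without MB replicate 1 (-0.56). The MB comparisons share the MB libraries, so their calls are not independent.

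The calls of Tuba1a, Dcx and Dclk2 against P14 were lost when single libraries were left out. Tuba1a was no longer called when any 1 of the P14 or MB libraries was left out (-0.87 to -0.79) or in the transcript table (-0.60). Dcx was not called without P14 replicate 1 (-0.66) or MB replicate 2 (-0.65). Dclk2 was not called with no filter on low counts (0.40), or when 1 of the P14 libraries, MB replicate 2 or MB replicate 3 was left out (0.33 to 0.44).

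Within the granule lineage list, Atoh1 (3.19) and Barhl1 (1.30) were higher in MB than at P7, and Pax6 (-1.71) and Neurod1 (-1.87), a gene of differentiating granule neurons, were lower, on the log2 scale. Interneuron markers were at or near 0 in the tumour cells. Of 6 interneuron markers, Pax2, Slc32a1, Gad2, Slc6a5 and Sst were under 1 CPM in all MB libraries, and the list summed to 3.81 to 6.07 CPM, against 119 to 207 CPM at P7 and 77.7 to 116 CPM at P14. Of 7 Purkinje cell markers 6 were lower and 1 higher than at P7, and Calb1 and Pcp2 were under 1 CPM in MB, with sums of 83.6 to 169 CPM in MB and 412 to 977 CPM at P7. All 8 vascular markers were lower (28.8 to 43.7 CPM against 497 to 684 CPM), as were 7 of 10 oligodendrocyte markers, with 2 higher (680 to 974 CPM against 1089 to 2182 CPM), while 4 of 8 microglial markers were higher (146 to 418 CPM against 53.4 to 140 CPM). Nuclear and rhombic lip neuron markers were 3 lower and 1 higher of 6 (111 to 194 CPM against 103 to 172 CPM), and Lmx1a, Lhx9 and Meis2 were under 1 CPM in MB. Astroglial markers were 5 lower and 1 higher of 7 (978 to 1361 CPM in MB) and choroid plexus 1 lower of 5. The part of these cells in the MB differences was not tested.

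Dclk1, a doublecortin-like kinase, passed the test in no comparison as a gene, and 2 of its 3 transcripts, which share most of their exon bases, did. Its gene level was 511, 592 and 439 CPM at E15.5, 430, 377 and 490 CPM at P1 and 413, 347 and 348 CPM at P7. It was 458, 344 and 366 CPM at P14 and 414, 256 and 271 CPM in MB. Neighbouring groups in the order of means all overlap. With the exon length correction the change from E15.5 to P1 was called (-0.77, against -0.25 ± 0.21 without it). The gene is known to make a long protein with doublecortin domains and a kinase domain, a shorter one with the doublecortin domains alone, and a short kinase from a start inside the gene.

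The transcript table lists 3 transcripts. The long one (ENSMUST00000054237) and an early-ending one (ENSMUST00000167204) both begin at position 55046448 on chr3 (mm9), and the early-ending one stops at 55275239, whereas the long one runs to 55342986. The third (ENSMUST00000070418) starts downstream at 55265680 and ends with the long one. The early-ending transcript has 4745 exon bases of its own and the downstream one 399, while the long and downstream ones share 6518 bases. In GENCODE M21, on the build of the printed sequences, the long transcript starts 162 bases after the upstream window's RefSeq start and the downstream transcript 30 bases after that of the other window. The count of a transcript includes every read over its exons, so transcripts that share exons share reads.

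The Dclk1 gene count less the count of the early-ending transcript, as a share of the gene count, was 50.8%, 50.7% and 50.3% at E15.5. It was 21.0%, 23.3% and 37.4% at P1, with the library labelled P1 replicate 3 highest, and 32.1%, 32.7% and 36.0% at P7. At P14 it was 49.0%, 47.9% and 50.0%, and in MB 9.61%, 10.3% and 11.5%. E15.5 and P14 are high, P1 and P7 lower and MB lowest, and MB overlaps no other group. Genes and transcripts were counted separately, so this share only approximates the reads over the other exons. The count for the downstream start site was 54.6% to 56.2% of the gene count at E15.5 and 26.1% to 42.1% at P1. It was 37.0% to 45.3% at P7, 53.2% to 54.7% at P14 and 12.9% to 17.5% in MB. With 3 libraries against 3, a two-sided exact permutation test cannot go below p = 0.10.

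Fitted as separate rows among 21480 transcripts, the forms had different values. This fit was added after the data had been seen. The downstream transcript gave 93.6, 80.3 and 91.4 CPM at P7, 156, 117 and 127 CPM at P14 and 30.3, 23.6 and 26.9 CPM in MB. Its log2 change was -1.72 ± 0.24 in MB against P7 (edgeR FDR = 6.29e-05) and -2.31 ± 0.25 against P14 (FDR = 3.19e-06), where 33.5% and 49.5% of transcripts were called. From E15.5 (175, 200 and 152 CPM) to P1 (69.1, 66.3 and 132 CPM) it changed by -0.98 ± 0.24 (FDR = 0.00391), where 45.3% were called. All MB libraries lie below all others for this transcript.

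The long transcript gave 142, 118 and 165 CPM at P7, 195, 146 and 161 CPM at P14 and 77.4, 62.8 and 67.2 CPM in MB. It was lower in MB than at P7 (-1.04 ± 0.21, edgeR FDR = 0.00116) and than at P14 (-1.27 ± 0.21, FDR = 1.37e-04). From E15.5 to P1 it changed by -0.70 ± 0.21 (FDR = 0.0122), a call lost without P1 replicate 1 (-0.62) or P1 replicate 2 (-0.58). Of its 7847 exon bases, 6518 are shared with the downstream transcript and not with the early-ending one. Both transcripts therefore share many reads, and their calls are not independent. Reads of the long transcript outside the shared exons were not tested.

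The early-ending transcript passed the test in no comparison with all libraries. It gave 180, 154 and 142 CPM at P7, 151, 115 and 117 CPM at P14 and 245, 148 and 153 CPM in MB. Its log2 change in MB was 0.20 ± 0.21 against P7 (edgeR FDR = 0.510) and 0.51 ± 0.21 against P14 (FDR = 0.0520). From E15.5 to P1 it was 0.33 ± 0.21 (FDR = 0.211), and from P1 to P14 -0.68 ± 0.21 (FDR = 0.0562). DESeq2 called the change from P1 to P14 (-0.65), as did edgeR without E15.5 replicate 3 or MB replicate 1 (-0.68 in both) or without the 3 libraries (-0.71). Against P14 the MB value was called higher without E15.5 replicate 3 (0.49), P14 replicate 1 (0.68), MB replicate 2 (0.65) or MB replicate 3 (0.62). Over all fits that left out 1 library it ran from 0.24 to 0.68, and MB replicate 1 was the highest MB library. The difference in change between transcripts was not tested.

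The postnatal course of the downstream transcript rested on the library labelled P1 replicate 3. It was 69.1, 66.3 and 132 CPM in the P1 libraries, and P14 against P1 gave 0.58 ± 0.24 (edgeR FDR = 0.132) with all libraries, where 8.12% of transcripts were called, and P14 against P7 gave 0.59 ± 0.24 (FDR = 0.116), where 9.98% were called. Without that library both were called, at 0.98 for P14 against P1 and 0.59 for P14 against P7, although it belongs to neither group of the second comparison. That library is also the one with oligodendrocyte marker sums of 4300 CPM, and P14 sums were 6669 to 7201 CPM. The part of those cells in the result was not tested.

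**Figure D4:**
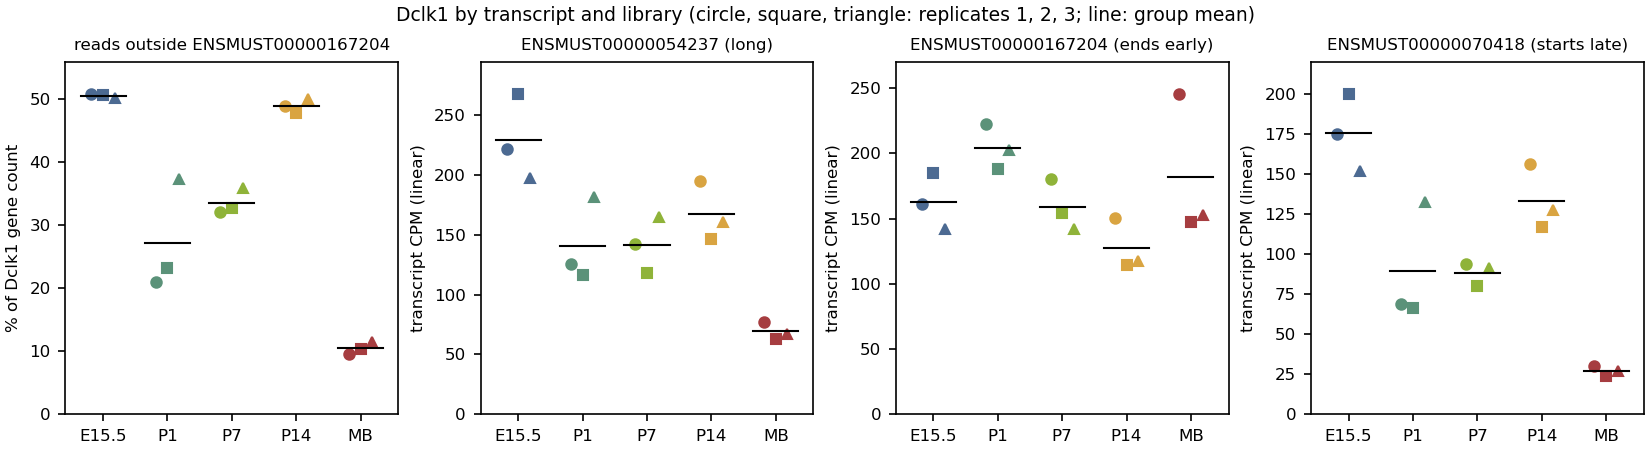
Dclk1 gene count less the count of the early-ending transcript, as a share of the gene count in percent, and CPM of the 3 Dclk1 transcripts (linear axes from 0), by library, with the group mean as a line. The share lies at 47.9% to 50.8% at E15.5 and P14 and at 9.61% to 11.5% in MB, while the early-ending transcript is at 148 to 245 CPM in MB and 142 to 180 CPM at P7.

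Related genes were read from 8 lists of microtubule genes, 83 of them tested, beside the 10. At P1 against E15.5, 41 were lower and 6 higher, which is 56.6% called where 46.3% of all genes were called and 20.9% as lower. The list median log2 change was -0.59 against 0.03 over all genes. Of the tubulin isotypes 6 of 11 were lower and 3 higher, of other structural proteins and stathmins 7 lower and 2 higher of 14, and of the collapsin response mediators, which act on axon growth, 4 of 5 were lower. The other lists held 4 of 10 lower (plus-end tracking proteins), 8 of 14 (severing and tubulin modification), 2 of 8 (dynein and Lis1 partners, near the share of all genes called lower), 5 lower and 1 higher of 11 (kinesins) and 5 of 10 (kinases of tau and other microtubule proteins). The median of the 10 members was -1.61.

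Between P1 and P7, 3 of 83 were called, all higher (3.61%), where 3.15% of all genes were called and 1.40% as higher. Between P7 and P14 4 were called, 3 of them higher (4.82%, below the 10.3% of all genes). At that step 886 of all 15259 genes were higher and 688 lower. At P14 against P1, 7 were higher and 1 lower, and these 9.64% are near the 8.94% of all genes. The genes named next are thus values of a list called, in either direction, about as often as other genes. By direction, 554 of all 15259 genes tested were higher and 810 lower. The median was 0.19 against 0.01 over all genes. The alpha- and beta-tubulin isotypes Tuba4a (26.8 ± 25.1 to 96.7 ± 6.26 CPM, SD, n = 3; log2 1.85) and Tubb4a (216 ± 158 to 592 ± 47.9 CPM; 1.46) were higher at P14. The structural proteins Map6d1 (1.38) and Map7d1 (0.90), the plus-end protein Mapre3 (0.88), the dynein intermediate chain Dync1i1 (1.33) and the stress kinase Mapk10 (0.81) were higher too. Fign, which severs microtubules, was lower (9.09 ± 1.18 to 4.18 ± 0.17 CPM; -1.12). For the 7 higher genes the library labelled P1 replicate 3 was the highest P1 library: Tuba4a was 8.50, 16.4 and 55.4 CPM in P1 replicates 1 to 3, and Tubb4a 116, 135 and 398 CPM. Without that library all 8 were still called, Tuba4a at 2.95 and Tubb4a at 2.24, and 18 of the 83 were called (16 higher, 2 lower), where 17.5% of all genes were. The 10 oligodendrocyte lineage markers had a median change of 2.01 at P14 against P1, with 1 higher and 1 lower by the test, and sums of 642 to 4300 CPM at P1 and 6669 to 7201 CPM at P14. The part of those cells in these values was not tested.

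In MB against P7, 29 of the 83 were lower and 3 higher, which is 38.6% called in either direction. Of all genes 34.5% were called, 20.7% as lower and 13.7% as higher. The list median was -0.42 against 0.02 over all genes. The 3 higher genes were Crmp1 (759 ± 108 CPM at P7 and 1578 ± 277 CPM in MB, SD, n = 3), Dpysl4 (0.74 on the log2 scale) and the kinesin Kif21a (1.02). Dpysl3 (819 ± 38.9 to 261 ± 32.8 CPM) and Dpysl5 (-1.23), of the same collapsin response mediator family, were lower, so 4 of the 5 family members were called, 2 in each direction. Among the lower genes were the kinesins Kif21b (963 ± 158 to 151 ± 61.9 CPM; -2.67) and Kif1a (-1.0), and Cdk5r2, an activator of the neuronal kinase Cdk5 (32.6 ± 9.96 to 3.62 ± 2.77 CPM; -3.16). The minus-end protein Camsap3 (-1.85), the structural protein Map7 (-2.04), Tuba8 (7.71 ± 3.69 to 0.096 ± 0.057 CPM), Tuba4a (-2.70), Mapre3 (-1.63), Mapre2 (-0.71), Ttll7 (-2.12), Vash1 (-1.14), Dync1i1 (-2.50) and the tau kinase Mark1 (-0.47) were also lower. Against P14, 31 were lower and 6 higher, which is 44.6% called in either direction, below the 50.0% of all genes. By direction, 27.2% of all genes were called lower and 22.9% higher.

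**Figure D5:**
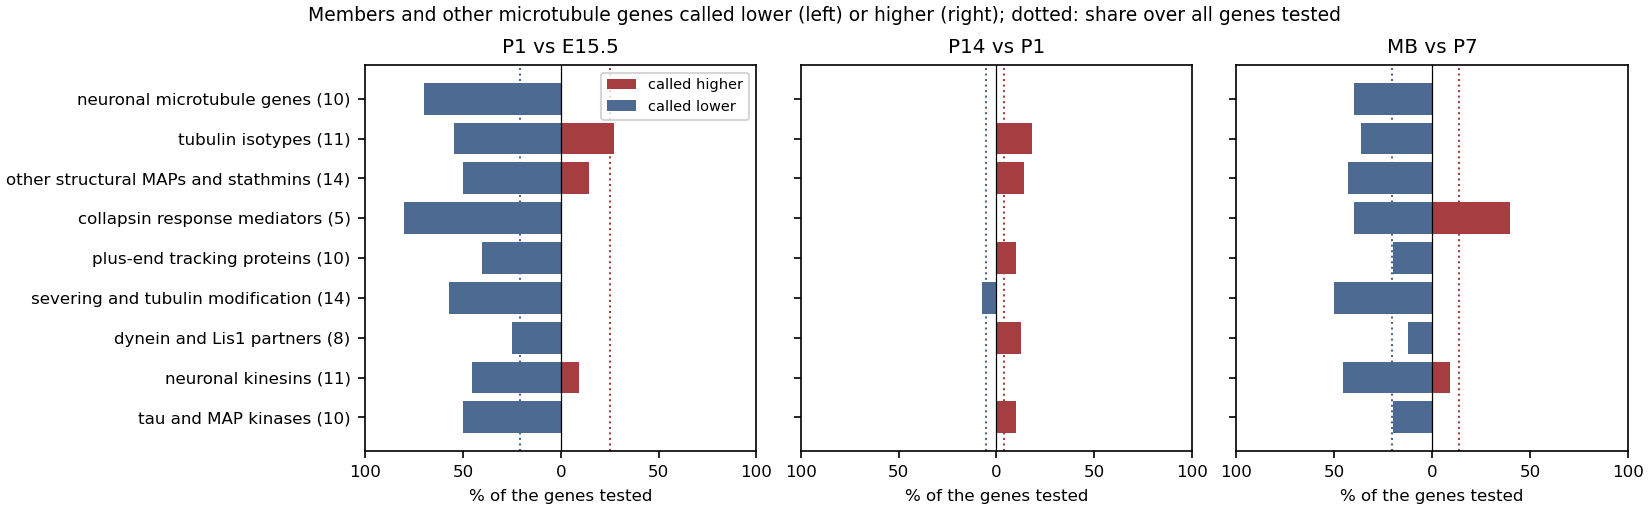
Percent of the tested genes of each list called lower, drawn to the left, or higher, drawn to the right, by edgeR in 3 comparisons, with dotted lines for the share over all genes tested. At P1 against E15.5 the bars to the left pass the 20.9% line in all lists.

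For each gene the 2 genes of most similar pattern were found as those with the smallest root mean square difference of centred log2 CPM over the 15 libraries, among 11566 other genes. For Dcx these were Nrcam (0.16) and Kidins220 (0.23), for Dclk1 Cltc (0.12) and Zyg11b (0.17), for Dclk2 Zfp740 (0.085) and Atmin (0.094), and for Map2 Fnbp1l (0.18) and Sms (0.18). For Mapt they were Cacnb1 (0.27) and Olfm1 (0.28), and for Map1b Aff2 (0.24) and Gpr161 (0.34). For Tubb3 they were Pafah1b3 (0.24) and Tceal6 (0.28), for Tuba1a the beta-tubulin isotype Tubb2b (0.19) and Mllt11 (0.23), for Stmn1 Actg1 (0.23) and Gm11808 (0.23), and for Stmn2 Sept5 (0.24) and 2900011O08Rik (0.30). Within the 10, Mapt and Stmn2 were 0.33 apart, against root mean square spreads of 1.06 and 1.07 of each gene around its own mean. Map2 and Dclk1 were 0.34 apart, against spreads of 0.42 and 0.31, so that distance is about as large as the variation of Dclk1 itself. These distances share each library's depth and scaling and are descriptions.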

How the data were processed

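Poly(A) RNA of 15 mouse libraries, 3 in each of 5 groups, was analysed. For each library 3 tables were deposited by the authors, holding raw read counts of genes, of start-site models and of transcripts, with no normalization, as the values show. Trimmomatic, TopHat, StringTie and HTSeq and the build mm9 are named in the submitters' processing notes, without versions, and the strand setting is not given in the sources used here. Summary lines that name no gene were kept out of library sizes: 22.9% to 44.6% of a library's records had several alignments, 14.1% to 29.2% lay in no gene, 0.520% to 0.749% were ambiguous, and 39.5% to 55.4% were counted in genes. Gene symbols matched for 20358 of 21889 genes.

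From the deposited counts, edgeR 4.0.16 (R 4.3.3) was fitted to all genes: filterByExpr (minimum count 10, total 15), TMM scaling, 1 mean per group over all 15 libraries (10 residual degrees of freedom), quasi-likelihood F-tests and Benjamini-Hochberg adjustment over 15259 genes, called at an FDR under 0.05. SE is the absolute log2 change over the square root of F. Alternatives were DESeq2 1.42.0, its size factors, no filter, only the groups compared, a replicate block, the counting set, the other tables and leaving out each library. After seeing the data, an exon length correction (lowess span 0.3), leaving out 3 libraries together, the related genes without P1 replicate 3 and fits of the Dclk1 transcripts were added. On simulated P14 against P1 data for 15259 genes, 37 of 100 genes changed 2-fold and 92 of 100 changed 4-fold were recovered, with 6 false calls. All 10 genes were named in every comparison. From each related list, the called genes of largest change were named, at most 2 per direction, for P14 against P1 and MB against P7. The genes and lists were chosen with earlier results of these data known. Tubb4b, of a related list, was not analysed here. The sequence motifs and the windows shown were chosen after the tables had been seen.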

Additional observations from a re-analysis of the deposited data

How the results depend on the processing

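The lower values of Mapt, Tubb3, Tuba1a, Stmn1 and Stmn2 at P1 against E15.5, and of Mapt and Stmn2 in MB against P7 and against P14, were called in every alternative run. Replicate numbers do not pair the libraries: deviations of same-numbered libraries correlated between -0.239 and 0.332, and in no comparison were all 3 above 0.1. With the replicate block, 0 of the 10 genes were called at P7 against P1, where the fit without it called 1 (Stmn1). The number was also 0 there with DESeq2 size factors, only the groups compared, a term for the set of 6 libraries, the start-site table or the transcript table, and 4 without the 3 libraries that stand apart. At P14 against P7 it was 0 with the set term and in the transcript table, 2 with only the groups compared or the exon length correction (Stmn1 and Map1b), and 3 without the 3 libraries. At P14 against P1 it was 1 inside 1 counting set (Map2, -0.46) and 2 without the 3 libraries, and at MB against P7 it was 7 without them. Leaving out 1 library at a time gave 5 to 9 called at P1 against E15.5, 0 to 1 at each of the 3 postnatal comparisons, 3 to 6 at MB against P7, 3 to 7 at MB against P14 and 7 to 9 over the 4 ages. No value inside the set exists for P7 against P1, P14 against P7 or the 4 ages.

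Changes of sign concerned values that were not called, in log2. For start sites, the table, which has a model for 9 of the 10 genes, holds only the downstream model of Dclk1, and the transcript table's Dclk1 row is the early-ending transcript, so these alternatives measure other parts of that gene. With no change of sign, the downstream model was called lower at P1 against E15.5 (-1.01), MB against P7 (-1.61) and MB against P14 (-2.12). Dclk1 in the transcript table was 0.32 at P1 against E15.5, -0.32 at P14 against P7, 0.19 at MB against P7 and 0.51 at MB against P14, and in the table of start sites it was 0.051 at P7 against P1 and 0.56 from P1 to P14. At MB against P7 it was 0.21 inside the set and 0.0047 with the length correction. Map2 at MB against P7 was 0.0024 with DESeq2, 0.0025 with its size factors, 0.0057 with only the groups compared, 0.033 with the set term, 0.34 inside the set and 0.10 with the length correction. Mapt at P14 against P7 was -0.40 with the set term, and Stmn1 at MB against P7 was 0.016 inside the set. At MB against P14, Map1b was -0.25 and Tubb3 0.14 inside the set, and -0.27 and 0.11 without the 3 libraries. Of the Dclk1 transcripts, the long one was -0.0030 at P7 against P1 with DESeq2, and without the 3 libraries the early-ending one was -0.020 at MB against P7 and the downstream one 0.37 at P7 against P1. The cause was not tested beyond the construction of the tables.

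Leaving out 1 library at a time changed the sign of 11 uncalled values, with these ranges: Dclk1 -0.061 to 0.16 and Tuba1a -0.45 to 0.090 and Stmn2 -0.26 to 0.077 at P14 against P7; Dclk2 -0.088 to 0.016 at P14 against P1; Map2 -0.019 to 0.27 at P7 against P1 and -0.21 to 0.094 at MB against P7; Map1b -0.27 to 0.52 and Tubb3 -0.52 to 0.11 at MB against P14. The long Dclk1 transcript ranged from -0.11 to 0.23 and the downstream one from -0.19 to 0.39 at P7 against P1, and the early-ending one from -0.080 to 0.33 at MB against P7. With the length correction the median log2 change of all genes was 0.103 at MB against P14, where the fit without it gave 0.012. In no other run was a median over 0.1.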
